A study of Homo sapiens with 2 samples.

Results

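The genes examined here encode 10 enzymes of glycolysis, from glucose phosphorylation to lactate: HK2, GPI, PFKL, ALDOA, TPI1, GAPDH, PGK1, PGAM1, ENO1 and LDHA. They were chosen by pathway after the PGK1 promoter had been seen as the highest-scoring promoter of the depleted-specific peak list, so that score is described and not tested. Every listed peak whose gene name is one of the 10 was taken, which gave 34 of 56159 peaks. Of the 10 genes, 7 had at least 1 peak, and PFKL, TPI1 and ENO1 had none.

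In FAIRE-seq, chromatin is crosslinked with formaldehyde and DNA that is not bound in protein is extracted and sequenced, which marks open chromatin. It was performed in HepG2, an established human liver cancer cell line grown with fetal bovine serum in EMEM by the sample labels and in MEMα by the study's methods. All cells had received lentiviral particles, which carried a scrambled hairpin RNA in the control group and a hairpin RNA against the orphan nuclear receptor NR2E3 in the NR2E3-depleted group, with 1 library per group. The deposited lists held 14368 common peaks (both libraries), 16236 control-specific peaks and 25555 depleted-specific peaks, each 300 bp wide. With 1 library per group no difference between the groups has a replicate check, and no test was made.

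Glycolysis splits glucose into pyruvate and yields ATP and NADH. In many tumours it runs fast even when oxygen is present, and lactate dehydrogenase then turns pyruvate into lactate. Hypoxia-inducible factor and MYC are well-known activators of these genes, and most of their promoters are CpG-rich and bind Sp1. Hepatocytes use PKLR where most other cells, and many liver tumours, use PKM.

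The peak score is a scaled number of tags (aligned reads) in the peak. Scores under 10 were whole multiples of 0.407 in the common and control-specific lists and of 0.507 in the depleted-specific list, so tag numbers could be recovered. If the unstated scale is 10 M (mega) tags, the depths were 24.6 M tags (control) and 19.7 M tags (NR2E3-depleted). Common peaks carry scores on the control scale only. The lowest listed score was 4.07 (10 tags) in the control-specific list and 4.06 (8 tags) in the depleted-specific list, and a site below the calling threshold is not listed with any value. Intervals of tag numbers are exact Poisson 95% intervals, which cover counting error only. Of 10 hepatocyte markers, 9 had a listed peak (52.8% of all protein-coding genes) and 6 a common promoter peak (15%), while TTR had none. A peak was listed for 4 of 5 blood markers (PTPRC had none), 1 of 5 fibroblast markers and 2 of 5 endothelial markers, against the same 52.8%, and FAIRE does not measure their transcripts.

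Of the 10 genes, 5 had a peak of the promoter class given by the deposited annotation. These promoters had a listed peak, 3 in both libraries and 2 in the depleted library alone, and the sequences of 4 of them are shown for that reason. Each is the part of the peak before the listed transcription start and outside annotated untranslated regions, read 5′ to 3′ on the plus strand of hg38, which is the coding strand of these genes. Capitals mark the Sp1-type GC box (GGGCGG) and the NFY-type box (CCAAT) on either strand. In the depleted-specific list these were PGK1 (chrX:78103875-78104174) and PGAM1 (chr10:97426077-97426190):
PGK1: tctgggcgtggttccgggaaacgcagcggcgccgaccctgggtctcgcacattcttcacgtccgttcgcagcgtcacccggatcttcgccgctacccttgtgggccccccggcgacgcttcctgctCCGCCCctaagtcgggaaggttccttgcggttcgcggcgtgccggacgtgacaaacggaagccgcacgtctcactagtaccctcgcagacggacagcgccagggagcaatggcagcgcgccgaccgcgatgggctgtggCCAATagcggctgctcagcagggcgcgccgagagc
PGAM1: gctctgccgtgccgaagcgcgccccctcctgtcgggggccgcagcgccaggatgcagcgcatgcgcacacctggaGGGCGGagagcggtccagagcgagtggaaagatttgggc

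In the common list they were ALDOA (chr16:30065474-30065759) and LDHA (chr11:18395947-18396246):
ALDOA: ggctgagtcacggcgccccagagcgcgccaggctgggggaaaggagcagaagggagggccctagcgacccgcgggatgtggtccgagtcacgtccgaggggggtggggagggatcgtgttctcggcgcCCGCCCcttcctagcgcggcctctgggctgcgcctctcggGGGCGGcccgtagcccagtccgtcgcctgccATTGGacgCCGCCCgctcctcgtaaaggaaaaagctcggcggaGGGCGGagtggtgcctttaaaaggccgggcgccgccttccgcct
LDHA: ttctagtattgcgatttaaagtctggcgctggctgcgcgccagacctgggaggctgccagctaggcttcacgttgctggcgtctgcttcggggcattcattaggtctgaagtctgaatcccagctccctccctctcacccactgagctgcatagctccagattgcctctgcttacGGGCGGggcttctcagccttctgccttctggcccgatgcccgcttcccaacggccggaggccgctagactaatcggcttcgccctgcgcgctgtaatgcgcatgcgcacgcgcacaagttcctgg

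The ALDOA stretch held 4 GC boxes, while PGK1, PGAM1 and LDHA held 1 each. The NFY-type box occurred once in PGK1 and once in ALDOA. The GAPDH promoter peak, whose sequence is not shown, held 0 GC boxes and 1 NFY-type box. GC content of the whole peaks was 72.3% at ALDOA, 70.7% at PGAM1, 68.3% at PGK1, 65.3% at GAPDH and 61.0% at LDHA. The median promoter peak had 61.7% in the common list and 64.0% in the depleted-specific list. The PGK1 and PGAM1 peaks held 40 and 38 CpG dinucleotides, against a median of 25 in their list. The ALDOA, GAPDH and LDHA peaks held 35, 24 and 22, against a median of 23 in the common list.

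**Figure D1:**
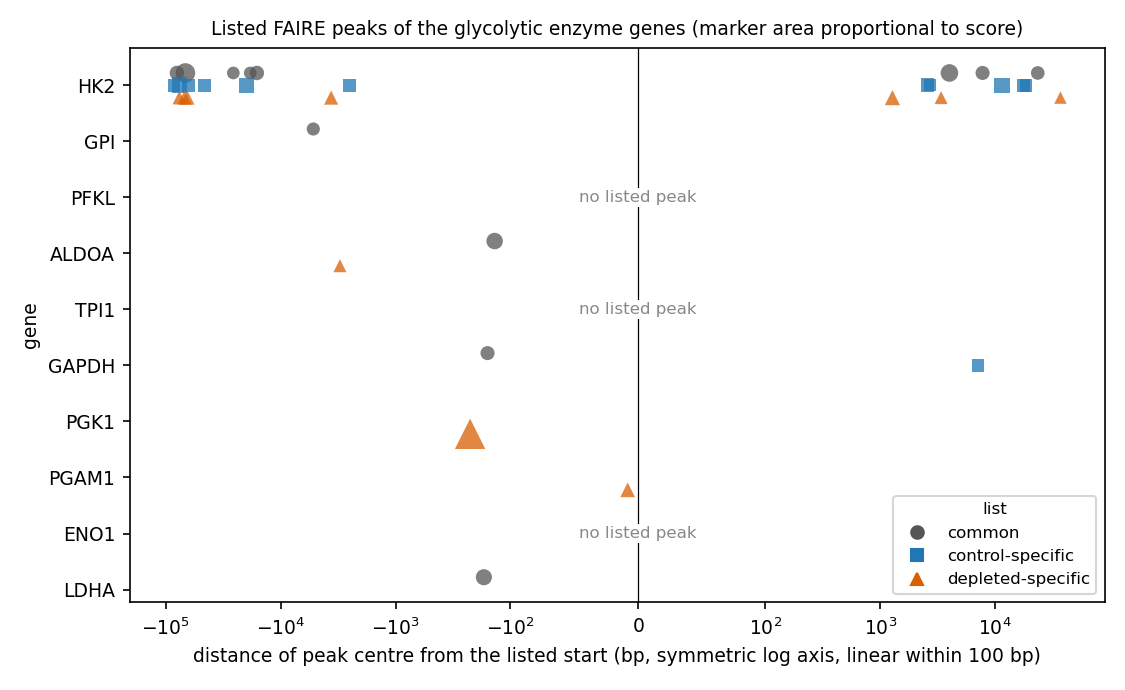
All 34 listed peaks of the 10 genes, with the distance of the peak centre from the listed transcription start in bp on the horizontal axis and the genes in pathway order on the vertical axis. Marker shape and colour give the list and marker area the score. The PGK1 promoter carries the largest marker, HK2 holds 26 of the peaks, and PFKL, TPI1 and ENO1 are empty.

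The 34 peaks comprised 12 common, 12 control-specific and 10 depleted-specific peaks. Promoter peaks numbered 3 in the common list (ALDOA, GAPDH and LDHA), 0 in the control-specific list and 2 in the depleted-specific list (PGK1 and PGAM1). The background was taken over 20056 protein-coding genes. Of these, 15% had a common promoter peak, 3.73% a control-specific one and 11.9% a depleted-specific one, and 28.8% had a promoter peak in any list. For peaks of any class, 5 of the 10 genes were in the common list (background 27.4%), 2 in the control-specific list (21.4%) and 4 in the depleted-specific list (37.0%). In any list 7 of the 10 genes had a peak, against 52.8% of all genes. In the control-specific and depleted-specific lists these 4 counts were within 1 gene of what the background share gives for 10 genes. Both depleted-specific counts include PGK1, whose promoter peak was known when the genes were chosen. The comparison with the background is therefore a description only.

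**Figure D2:**
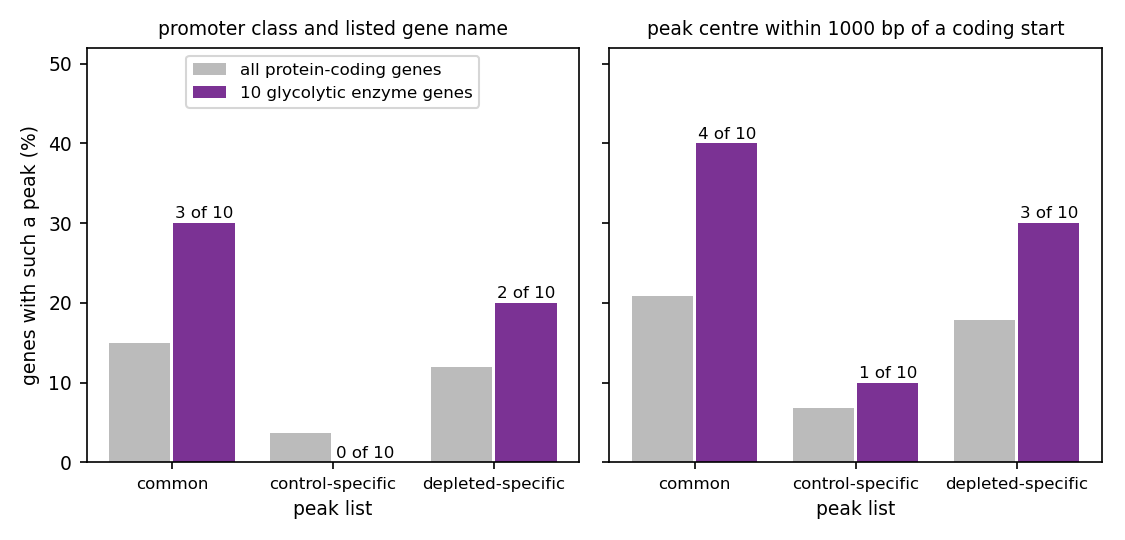
Share of genes with a promoter peak in each list, in percent, for all protein-coding genes (grey) and for the 10 glycolytic enzyme genes (purple, with the count above the bar). The left panel uses the deposited promoter class and gene name (3, 0 and 2 of 10 genes), and the right panel uses any peak centred within 1000 bp of the start of a protein-coding transcript (4, 1 and 3 of 10).

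HK2 (hexokinase 2, the inducible enzyme that phosphorylates glucose at the entry of glycolysis) had 26 of the 34 peaks: 8 common, 11 control-specific and 7 depleted-specific. None was of the promoter class. No other of the 10 genes had peaks in all 3 lists. The gene lies on the plus strand of chromosome 2 from 74834127 to 74893359 (hg38), and its peaks covered the 122 kb from 74747662 to 74869915. By class, 15 peaks were intergenic, all upstream of the gene, 10 were intronic and 1 was in the 5′ untranslated region. As many peaks or more were listed for 13 of 1206 protein-coding genes of chromosome 2, whose median was 3, and for 0.883% of all protein-coding genes. Chromosome 2 held 32.1 peaks per Mb, against a median of 8.52 over 23 chromosomes. The part of chromosome-wide density in the HK2 count was not tested.

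Scores at HK2 ranged from 5.29 to 12.6 (13 to 31 tags) in the common list, with a median of 6.71. They ranged from 4.88 to 8.13 (12 to 20 tags, median 5.69) in the control-specific list and from 5.07 to 7.6 (10 to 15 tags, median 6.59) in the depleted-specific list. The highest common peak, an intergenic site at chr2:74764870-74765170, had a score of 12.6 and lay 67635 bp upstream of the listed start. Only 3.08% of common distal peaks scored as high. The next, at chr2:74836509-74836809 in intron 1, scored 10.2 (25 tags, 16.2 to 36.9). The tallest sites of HK2 were thus listed for both libraries, and the specific peaks around them were lower.

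The start of HK2 showed an alternation of lists within a few kb. The depleted-specific peak at chr2:74833781-74834081 had a score of 7.6 (15 tags, 8.40 to 24.7). The deposited annotation placed it in the 5′ untranslated region, 1276 bp downstream of the listed start. Its centre was 196 bp upstream of the start of the MANE Select transcript in GENCODE (the agreed reference transcript), which lies 1472 bp downstream of the listed one. Control-specific peaks at chr2:74835093-74835393 and chr2:74835226-74835526, which overlap each other, scored 6.1 (15 tags) and 4.88 (12 tags). The first of them covered a further coding start at 74835170, and the second began just downstream of that start. A depleted-specific peak in intron 1 followed at chr2:74835893-74836193 with a score of 5.58 (11 tags). Its centre was 616 bp from that of the common peak that scored 10.2. Each library therefore had specific peaks in this region, all of 11 to 15 tags. They lay at different sites, so their tag intervals do not compare the libraries at the same site.

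Farther upstream of HK2, the control-specific peak with the highest score (8.13, 20 tags) was centred 319 bp from a depleted-specific peak of score 6.08 (12 tags). It was the only pair of HK2 peaks from different lists within 500 bp. Over all 10 genes, 1 of 12 control-specific peaks lay that close to a peak of another list, as did 1 of 10 depleted-specific peaks. Within 1000 bp there were 3 and 2. These distances were not taken for all peaks of the lists, so the counts are not read as a trait of these genes.

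**Figure D3:**
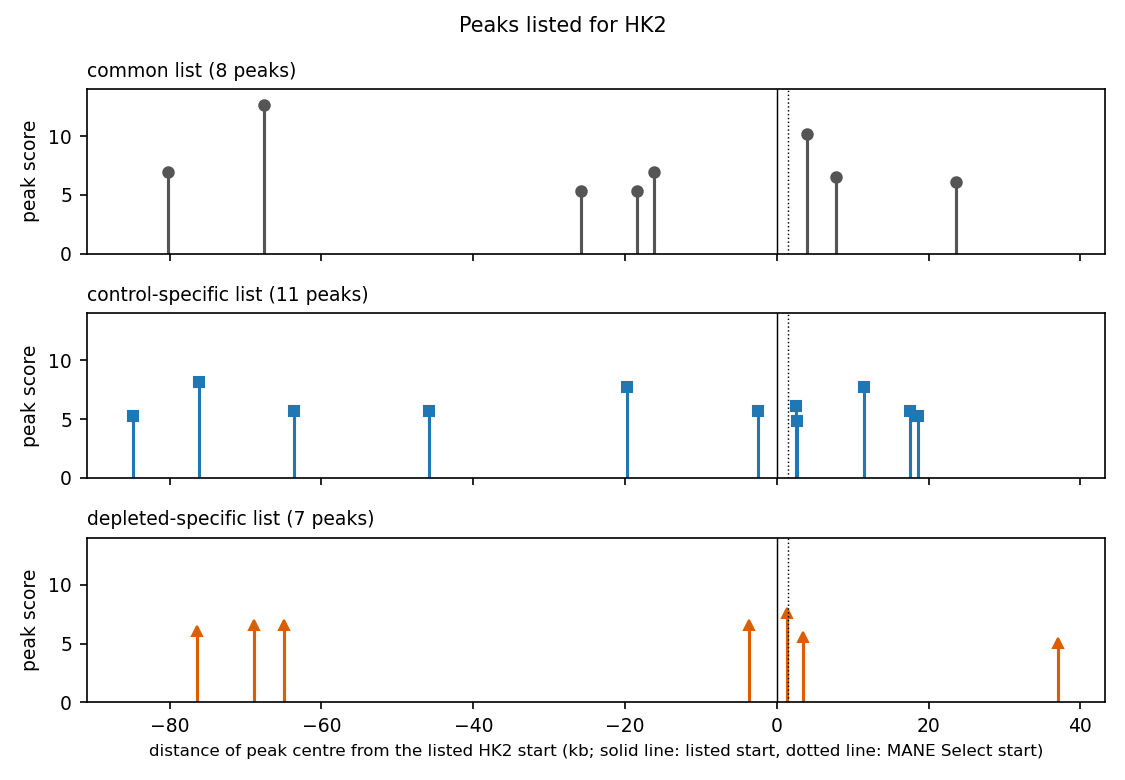
Score of each peak listed for HK2 (vertical axis) against the distance of its centre from the listed start in kb (horizontal axis), with 1 panel per list. The 2 highest sites, with scores of 12.6 and 10.2, are in the common panel, and a depleted-specific peak lies beside the dotted line, the start of the MANE Select transcript.

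GPI (glucose-6-phosphate isomerase, which converts glucose 6-phosphate to fructose 6-phosphate) had 1 peak, a common one at chr19:34359388-34359688 with a score of 5.69 (14 tags, 7.65 to 23.5). The deposited annotation called it intergenic, 5202 bp upstream of the listed start. In GENCODE it overlaps the start of the gene at 34359480, where protein-coding transcripts other than the MANE Select one begin. Its centre is 5658 bp upstream of the start of the MANE Select transcript. No peak was listed at that main start.

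PFKL (liver phosphofructokinase, which catalyses the committed step of glycolysis) had no peak. The nearest to its start at 44300053 on chromosome 21 was a control-specific promoter peak of CFAP410, 39364 bp away. The nearest depleted-specific peak was 144590 bp away.

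ALDOA (aldolase A, which cleaves fructose 1,6-bisphosphate) had 2 peaks. Its common promoter peak at chr16:30065473-30065773 had a score of 8.95 (22 tags, 13.8 to 33.3), and its centre was 137 bp upstream of the start. Of common promoter peaks outside the mitochondrial chromosome, 21.3% scored at least as high. The other peak was depleted-specific, at chr16:30061081-30061381 with a score of 5.58 (11 tags, 5.49 to 19.7). It lay in intron 3 of a longer transcript form, 3048 bp upstream of the nearest listed start. The main promoter of ALDOA was thus listed for both libraries.

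TPI1 (triosephosphate isomerase, which interconverts the triose phosphates) had no peak. The nearest to its start at 6867531 on chromosome 12 was a common promoter peak of SPSB2, 5988 bp downstream.

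GAPDH (glyceraldehyde-3-phosphate dehydrogenase, which forms NADH) had a common promoter peak at chr12:6534209-6534509 with a score of 6.51 (16 tags, 9.15 to 26.0), centred 158 bp upstream of the start. This was near the median of common promoter peaks, 6.91, and 66.0% of them scored as high. A control-specific peak with GAPDH as its nearest listed gene lay at chr12:6542210-6542510 with a score of 5.29 (13 tags). Its centre was 7096 bp downstream of a listed start, and the peak lies beyond the end of GAPDH at 6538374, in an intron of another transcript.

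PGK1 (phosphoglycerate kinase 1, which makes the first ATP gained in glycolysis) had 1 peak. It was depleted-specific, at chrX:78103874-78104174, with a score of 30.4 (60 tags, 45.8 to 77.2). The peak centre was 224 bp upstream of the start at 78104248 and the peak ended 74 bp before it. It had the highest score of 2838 depleted-specific promoter peaks, as its choice implied. The next were DCAF11 with 23.8 and PHF14 with 17.2, against a median of 7.1. Among depleted-specific peaks of all classes outside the mitochondrial chromosome it ranked 4.

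Chromosome X was sparse in peaks, with 10 common, 15 control-specific and 88 depleted-specific peaks (0.724 per Mb in all). Promoter peaks on it numbered 4, 2 and 40 in these lists, against 3445, 900 and 2838 in the whole lists. Most promoter peaks of chromosome X were thus listed in the depleted library alone, as PGK1 was. The second-highest depleted-specific score on chromosome X was 9.13 (18 tags), so PGK1 had 3.33 times as many tags. Common peaks on chromosome X reached 9.35 and control-specific peaks 7.73. The nearest control-specific peak, at the MAGT1 promoter, was 208529 bp from the PGK1 start, and the nearest common peak was 23303856 bp away. At equal signal the control library, with its greater depth (depleted-to-control ratio 0.802), would have held 74.8 tags at this site. The lowest control-specific peak on chromosome X had 13 tags. The number of control tags at the site was not analysed here. Cells of both groups had received lentiviral particles, and some hairpin vectors carry a fragment of the PGK1 promoter. The sources used here do not name the promoters of this vector. Tags of the gene were not separated from tags of any such fragment, and their part in the score of 30.4 was not tested.

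PGAM1 (phosphoglycerate mutase 1, which converts 3-phosphoglycerate to 2-phosphoglycerate) had 1 peak, also a depleted-specific promoter peak. It lay at chr10:97426033-97426333 over the start at 97426191, with its centre 8 bp upstream. The score was 7.1 (14 tags, 7.65 to 23.5), equal to the median of depleted-specific promoter peaks. At equal signal the control library would have held 17.5 tags, against 10 tags in its lowest listed peak. The nearest control-specific peak was 18597 bp upstream of the start and the nearest common peak 19877 bp downstream. The tag interval of PGAM1 reached below 10 tags, so its listing in 1 library rests on few tags.

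ENO1 (enolase 1, which forms phosphoenolpyruvate) had no peak under its own name. A common peak named for its antisense neighbour ENO1-AS1, at chr1:8880290-8880590 with a score of 5.69 (14 tags), was centred 1754 bp upstream of the ENO1 start at 8878686.

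LDHA (lactate dehydrogenase A, which converts pyruvate to lactate) had a common promoter peak at chr11:18395946-18396246 with a score of 8.54 (21 tags, 13.0 to 32.1). The peak centre was 170 bp upstream of an internal listed start, which lies 1703 bp downstream of the start of the MANE Select transcript at 18394563. No peak was listed at that main start. Of common promoter peaks, 26.2% scored at least as high.

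**Figure D4:**
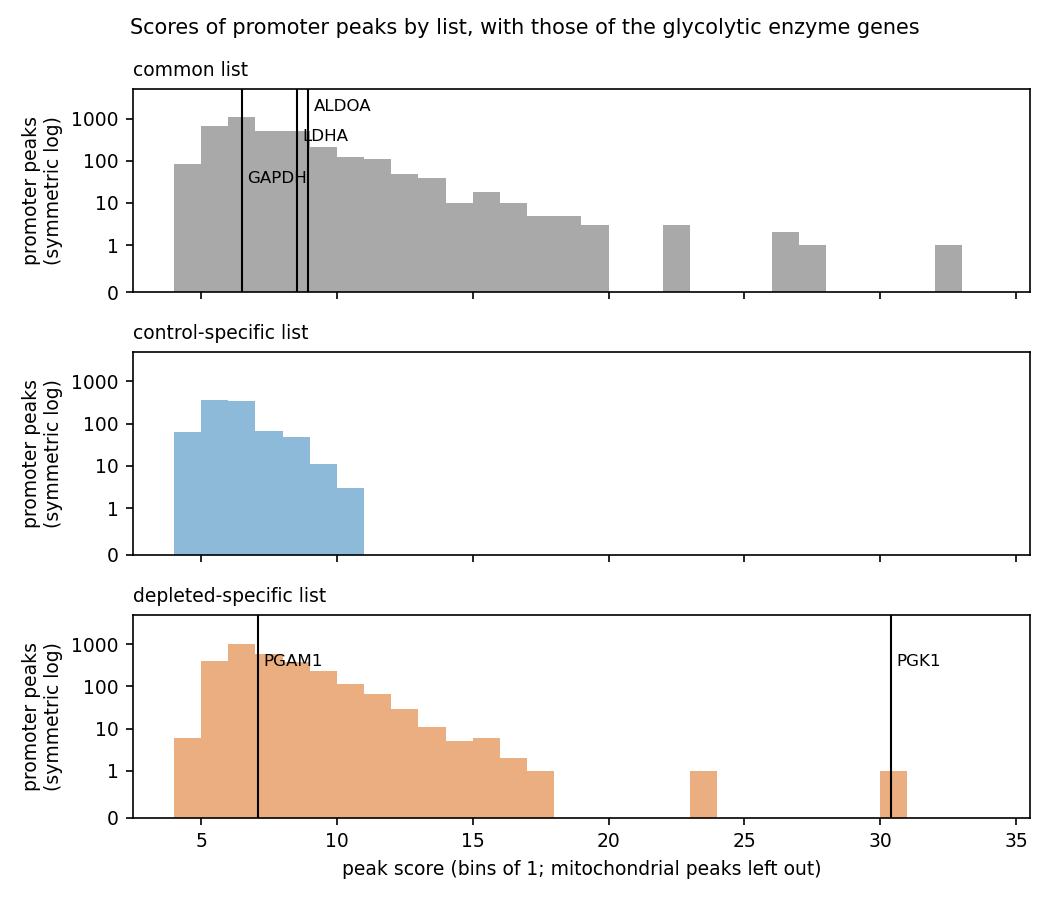
Number of promoter peaks (vertical axis, symmetric log) by peak score (horizontal axis, bins of 1) in each list, with vertical lines at the scores of the glycolytic enzyme genes. GAPDH, LDHA and ALDOA lie between 6.51 and 8.95 and PGAM1 at 7.1, within the bulk of their lists, while PGK1 at 30.4 stands at the upper end.

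The deposited promoter class missed starts that GENCODE annotates elsewhere. When a gene was counted for any peak centred within 1000 bp of the start of one of its protein-coding transcripts, 4 of the 10 genes had a common peak (GPI, ALDOA, GAPDH and LDHA), against 20.9% of 19675 genes. A depleted-specific peak was found for 3 (HK2, PGK1 and PGAM1), against 17.9%, and a control-specific peak for 1 (HK2), against 6.79%. HK2 was thus counted in both specific lists. The depleted-specific count again includes PGK1, whose peak was known when the genes were chosen.

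The sequences before the starts were compared for all 10 genes, whether or not a peak was listed. Windows of 200 bases before the MANE Select start were searched on both strands for 5 motifs, and the shares over 19675 protein-coding genes are given beside the counts. The GC box GGGCGG was found in 8 of 10 genes (56.6% of all genes), with 6 copies at PFKL, 5 at TPI1 and none at GAPDH and LDHA. The core of the hypoxia response element, ACGTG or GCGTG, was found in 9 of 10 (45.5%), in all but TPI1. LDHA had 5 copies of this core at 3 places, as its E-boxes CACGTG each hold the core on both strands. CCAAT was found in 3 genes (30.5%), HK2, ALDOA and PGK1. The E-box was found in LDHA alone (6.92%) and TATAAA in GAPDH alone (7.79%). GC content of these windows was 64.5% at GAPDH and from 71.0% to 79.5% at the other 9 genes, against a median of 64.5%. The part of GC content in the motif counts was not tested. PFKL, TPI1 and ENO1, which had no peak, had GC contents of 78.5%, 72.0% and 71.0%, within the range of the genes with a peak. GPI set the top of that range (79.5%), but the peaks of GPI and LDHA did not lie at the MANE Select start. Of the genes with a peak near that start, HK2 was highest, also with 78.5%. PFKL and TPI1 had more GC boxes than any of the genes with a peak, whose highest number was 4 (ALDOA), and ENO1 had 1.

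Further genes of glucose metabolism were taken from 5 lists with 55 genes. Common promoter peaks were listed for 13 of them (15% of all protein-coding genes), control-specific ones for 4 (3.73%) and depleted-specific ones for 10 (11.9%). Of 17 other glycolytic isozymes, 2 had a promoter peak in any list, against 28.8% of all genes. Both were depleted-specific, a share near the 11.9% of all genes. They were PKM (pyruvate kinase M, chr15:72231105-72231405, score 8.11, 16 tags, centred 65 bp upstream) and PKLR (the liver and red cell pyruvate kinase, chr1:155300930-155301230, score 7.1, 14 tags, 128 bp upstream). Pyruvate kinase catalyses the last step of glycolysis, and both scores were close to the median of that list, 7.1. HK1 and LDHB had no peak.

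Of 7 glucose and lactate transporters, 2 had a promoter peak, both in the depleted-specific list alone, against 28.8% of all genes with a promoter peak in any list and 11.9% with a depleted-specific one. SLC16A3 (the lactate exporter MCT4) had a score of 8.11 (16 tags), and SLC2A4 (the insulin-responsive glucose transporter) had peaks of 10.1 and 6.59. Of 17 regulators, 6 had a common promoter peak (15% of all genes), 3 a control-specific one (3.73%) and 4 a depleted-specific one (11.9%). HIF1A, ARNT and PDK1 were in the common list, with scores of 6.91, 10.6 and 9.76. The control-specific ones were MYC (7.73), GCKR (5.69) and PPARGC1A (6.91), and GCKR and PPARGC1A also had depleted-specific promoter peaks (5.58, and 8.62 and 5.58). The other depleted-specific ones were MLX (7.1) and PDK2 (6.59), and PDK2 had a common promoter peak as well.

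Of 7 gluconeogenic genes, 4 had a common promoter peak (15% of all genes): G6PC1 (6.1), PC (6.51), PCK1 (9.76) and PCK2 (11.4). PC, which has several starts, also had a depleted-specific promoter peak (10.1), and SLC37A4 (the glucose 6-phosphate transporter) had a control-specific one (8.54). Of 7 pentose phosphate genes, PGD, RPE and RPIA had a common promoter peak (15% of all genes) and PGLS a depleted-specific one with a score of 6.59 (11.9%).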

How the data were processed

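Per the labels and the study's methods, the authors ran bcl2fastq 2.17, Trimmomatic 0.39 and Bowtie2 2.4.5 (alignment, hg38) and then called and annotated peaks with HOMER. They deposited 3 annotated peak lists with a peak score, a scaled tag number, and the distance to the nearest start. The rule that separates common from specific peaks and the scale of the score are not given in the sources used here. The methods mention input samples, and whether an input was used in the peak calls is not given in the sources used here.

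Rows were taken by gene name, and coordinates are as listed. Tag numbers are scores divided by the step of each list (tolerance 0.0051). Promoter class was the deposited one. Starts and sequences came from hg38 with GENCODE release 44, and the 20056 protein-coding genes from RefSeq (GRCh38.p14), with synonyms matched. All 55 further genes and all markers matched. The genes, the further lists and the motifs were chosen with earlier results of these data known. From the further lists, genes with a specific promoter peak and a few isozymes, among them HK1, PKM, PKLR and LDHB, were to be named (some items are not reported here), and the common promoter peaks named were added after their values were seen. The recovery of score steps and the motif search (with GGGCGG) were tested on simulated data, and the other calculations were not. Software was pysam 0.24.0, scipy 1.17.1, pandas 2.3.3, numpy 2.4.6 and matplotlib 3.10.9 under Python 3.11.15.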

Additional observations from a re-analysis of the deposited data

How the results depend on the processing

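Of 35 alternative values, 28 stayed within 1.5 times the reported count and 7 moved beyond it. With at least 15 tags per peak, 1 gene (PGK1) had a depleted-specific promoter peak in place of 2, the control-specific peaks of the 10 genes fell from 12 to 4 and the depleted-specific ones from 10 to 2, by the construction of that minimum. That minimum is also not equal for the libraries, as 15 tags correspond to a higher score in the depleted library. The median peak had 14 tags in the whole control-specific list and 12 in the whole depleted-specific list. Shares of all genes or peaks at this minimum were not computed, so the falls are not read as a trait of the 10 genes. With promoters taken within 3000 bp of the listed start or by position, HK2 was counted in both specific lists. This gave 1 gene in place of 0 in the control-specific list and 3 in place of 2 in the depleted-specific list. By position, the shares of all genes were 6.79% and 17.9%, and shares within 3000 bp of the listed start were not computed. CCAAT was found in 5 of the 10 genes with windows of 500 bases, against 50.2% of all genes. The hypoxia response core was found in 4 with windows of 100 bases (29.3%) and in 9 with windows of 500 bases (69.6%). Such changes follow from window length. With 1 library per group none could be left out, and no pairs of samples exist. At the 10 to 20 tags of most of these peaks, listing in 1 library and not in the other is not a firm difference.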
